A study of Homo sapiens with 36 samples.

Results

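The genes described here are the 32 genes of human cells that license replication origins and fire them, from the origin recognition complex to the fork protection complex. They were taken as a fixed list of symbols and matched through their Ensembl identifiers to the rows of the deposited count table, which holds 60676 genes. All 32 matched, and all 32 were among the 15744 genes that passed the filter on low counts and were tested. No measured value chose them, although the list was drawn up with earlier results of these data known.

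An origin is licensed in G1 phase, when the origin recognition complex (ORC), CDC6 and CDT1 load the ring-shaped MCM2-7 helicase onto DNA in an inactive form, and geminin (GMNN) binds CDT1 to block a second loading later in the cycle. In S phase the CDC7 kinase with its activating subunit DBF4, together with cyclin-dependent kinases acting through TICRR and TOPBP1, lets CDC45 and the GINS complex join the ring and open it into a working helicase. Many of these genes are classical targets of the E2F factors, so their RNA is high in cells that cycle, and androgen drives the cycling of LNCaP cells.

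LNCaP is an established prostate cancer cell line, grown from a lymph node metastasis, that expresses the androgen receptor and responds to androgen. All cultures were of this 1 line and grew in RPMI medium with fetal bovine serum. They received DMSO vehicle, 3 µM enzalutamide (an androgen receptor antagonist), 3 µM olaparib (an inhibitor of the PARP enzymes of DNA repair), or both drugs at those doses, for 8, 24 or 72 hours. Each of the 12 groups had 3 cultures with 1 library each, 36 in all, and the same DMSO cultures served every drug at their hour.

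The libraries held 4.15 M to 15.4 M counted fragments (median 9.63 M), and a member had between 39 (ORC3) and 4069 (MCM7) counts in a library. One library stood apart: the first DMSO culture at 72 h had 4.66 M counts and 1.54% of them in mitochondrial genes, against 5.56% and 3.97% in the other two, and the counts of called members that use it are also given without it. All 10 markers of LNCaP cells passed the filter, while 10 of 14 markers of basal, stromal, endothelial and blood cells had at most 2 counts in any library, and 3 of these had 0. Their summed level was 24 to 37.4 CPM (counts relative to the library's size after TMM scaling) over all libraries. At 24 h it was 30.9 to 34.5 with DMSO, 27.7 to 30.5 with enzalutamide, 30.1 to 31.7 with olaparib and 32.5 to 35.6 with both drugs, and at 72 h 29 to 37.4, 25.7 to 31.5, 24 to 27.9 and 26 to 30.9. Most of the sum was COL1A1, at 21.5 ± 1.16 CPM (SD, n = 3) with DMSO and 24.4 ± 1.62 with enzalutamide at 24 h. Of the 4 markers tested, 2 were lower with enzalutamide, and with both drugs, at 24 and 72 h: KRT14, at 1.88 ± 0.274 CPM with DMSO and 0.144 ± 0.0437 with enzalutamide at 24 h, and VWF, at 8.55 ± 1.12 and 3.65 ± 0.241. COL1A1 was higher with both drugs at 24 h. The part of such cells in the results was not tested. KLK3, the androgen-driven gene of prostate-specific antigen, was at 714 ± 102 CPM (SD, n = 3) with DMSO and 91 ± 18.3 CPM with enzalutamide at 24 h.

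In the DMSO cultures at 24 h, the levels per kilobase of exon spanned a wide range. MCM7 was highest at 73.2 ± 0.8 CPM per kb (SD, n = 3), followed by MCM3 at 57.5 ± 1.35 and the licensing factor CDT1 at 43 ± 3.46. MCM4 (33.9 ± 0.552) and MCM2 (32.3 ± 1.3) came next, and each of these 5 was separated from its neighbour in the order by all of its cultures. MCM6 at 21.2 ± 0.538 and MCM5 at 20.3 ± 1.24 CPM per kb did not differ beyond the spread of their cultures. From RECQL4 (13.3 ± 1.64) down to DBF4 (6.19 ± 0.304), the 10th to the 22nd of the order, no neighbours were separated. The lowest levels per kb belonged to TICRR (3.13 ± 0.0858), the MCM-related helicase MCM8 (2.39 ± 0.0951) and ORC4 (1.78 ± 0.223). The exon lengths used include stretches shared with other genes, among them 33.3% of the length of MCM8 and 23.6% of that of MCM2. The part of such stretches in this order was not tested.

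The promoters of the module were read because E2F factors are the known regulators of many members. RefSeq windows (GRCh38.p14) of 300 bases, from 250 before to 50 after a gene's start, were held for 27 of the 32 members. They were searched on both strands for 4 words of 8 letters that an E2F factor can bind: TTTGGCGC, TTTCCCGC, TTTGCCGC and TTTCGCGC, of which the first and the last can overlap on opposite strands. At least 1 word stood in the windows of 16 of the 27 members (59.3%), against 1090 of 27305 genes with such windows (3.99%). In the bases before the start alone, 9 of the 27 members (33.3%) held a word, against 3.4% of genes. The letters CCAAT, on either strand, stood in 18 of the 27 (66.7%) against 39.7% of genes, and the letters TTTGAA, a form of the element of genes that peak late in the cycle, in 1 member, DBF4, against 18.2% of genes. The 120 bases before the start are shown for 4 members that hold a word and 2 that do not, with the words in capitals:
CDT1: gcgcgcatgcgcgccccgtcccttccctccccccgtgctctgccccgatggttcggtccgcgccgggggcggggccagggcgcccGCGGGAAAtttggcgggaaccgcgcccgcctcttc
GINS2: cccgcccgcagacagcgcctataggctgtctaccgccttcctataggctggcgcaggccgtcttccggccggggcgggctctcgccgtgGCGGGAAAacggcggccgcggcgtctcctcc
MCM6: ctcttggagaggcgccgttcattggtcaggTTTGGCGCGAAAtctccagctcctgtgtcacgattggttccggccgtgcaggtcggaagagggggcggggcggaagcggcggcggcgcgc
ORC3: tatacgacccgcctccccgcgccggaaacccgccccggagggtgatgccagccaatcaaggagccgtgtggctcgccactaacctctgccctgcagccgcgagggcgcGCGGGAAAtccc
ORC5: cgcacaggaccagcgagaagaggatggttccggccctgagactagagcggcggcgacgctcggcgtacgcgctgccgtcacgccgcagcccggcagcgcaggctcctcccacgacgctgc
DBF4: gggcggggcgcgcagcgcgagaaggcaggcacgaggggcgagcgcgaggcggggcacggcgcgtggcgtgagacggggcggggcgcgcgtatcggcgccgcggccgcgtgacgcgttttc

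All 6 are written 5′ to 3′ in the direction of the gene. They lie at chr16:88803669-88803788 on the plus strand (CDT1), chr16:85688955-85689074 on the minus strand (GINS2), chr2:135876444-135876563 on the minus strand (MCM6), chr6:87590015-87590134 on the plus strand (ORC3), chr7:104208014-104208133 on the minus strand (ORC5) and chr7:87876373-87876492 on the plus strand (DBF4). CDT1, GINS2 and MCM6 were lower with enzalutamide at 24 h. ORC3, whose window holds the same 8 letters as those of CDT1 and GINS2, was not called. ORC5 and DBF4, whose windows hold none of the words, were lower with enzalutamide at both 24 and 72 h. Over the 27 members, 14 of the 16 with a word in the 300 bases and 9 of the 11 without one were lower with enzalutamide at 24 h. Only exact matches to the listed words were sought, so a member without a word may still hold another form of E2F site. Whether the fall depends on such sites was not tested. A word in a window is a match of letters and not a measured binding site.

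At 24 h of enzalutamide the module fell almost as a whole. Against DMSO, 28 of the 32 members were lower and 0 were higher in edgeR's quasi-likelihood test at an adjusted p below 0.05, where 10.6% of all genes tested were lower. The adjusted p is corrected over all genes tested by the Benjamini-Hochberg method. The median log2 fold change of the members was -0.59, with a range of -0.80 to 0.12, while that of all genes tested was 0.01. The members stood at 57.3% (ORC6) to 109% (ORC3) of their DMSO level, with a median of 66.4%. The 3 cultures of one group lay wholly below the 3 of the other for 28 members, against 19% of all genes tested. The 4 members not called were ORC2, ORC3, ORC4 and TIPIN. The library names mark 3 sets of libraries, each with 1 library of every group, and do not say what a set shares. Within these sets 29, 30 and 31 members were lower. The share of counts in mitochondrial genes moved too, at 5.54% to 6.53% with enzalutamide against 4% to 4.78% with DMSO at 24 h, and its part in the result was not tested. In bulk RNA, fewer cells in the phases that express these genes and less of their RNA in each cell cannot be told apart.

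**Figure D1:**
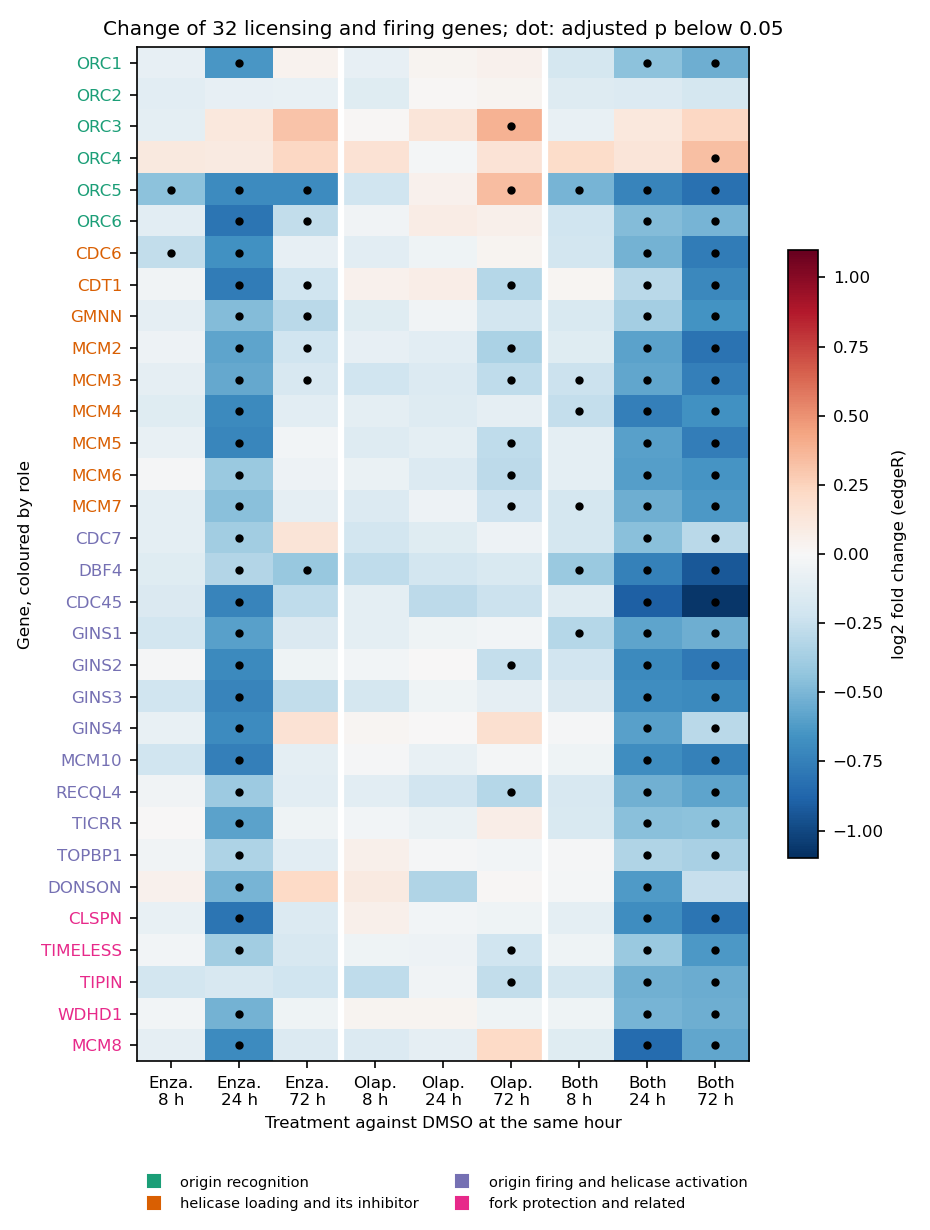
Log2 fold change of each of the 32 genes (rows, coloured by role) for enzalutamide, olaparib and both drugs against DMSO at 8, 24 and 72 h (columns); a black dot marks an adjusted p below 0.05. The enzalutamide columns are darkest at 24 h (28 dots) and pale at 72 h (7 dots), whereas the columns of both drugs stay dark at 72 h (29 dots, 1 of them, ORC4, higher).

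Within the origin recognition complex the response was uneven: 3 of 6 subunits fell at 24 h of enzalutamide. ORC1 (ENSG00000085840, chromosome 1, 52372829 to 52404423), the subunit whose amount changes over the cell cycle, was at 29.5, 29.5 and 30.1 CPM with DMSO and at 18.9, 18.1 and 20.3 CPM with enzalutamide. The groups did not overlap, and the log2 fold change of ORC1 was -0.64 ± 0.10 (SE, adjusted p = 3.4e-06). ORC6, the smallest subunit, stood at 27.6, 31.8 and 33.5 CPM with DMSO and at 17.9, 18.4 and 17 CPM with enzalutamide. Every treated culture of ORC6 lay below every control, with a log2 fold change of -0.80 ± 0.08 (adjusted p = 9.1e-10), the largest fall of any member together with that of CLSPN. ORC2, a core subunit, was at 25.8, 25.6 and 28.1 CPM with DMSO and at 25.4, 23 and 26.2 CPM with enzalutamide. Its cultures overlapped, and its log2 fold change of -0.09 ± 0.09 did not pass (adjusted p = 0.55), nor did those of ORC3 (0.12 ± 0.12) and ORC4 (0.10 ± 0.11).

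ORC5, another core subunit (ENSG00000164815, chromosome 7, 104126341 to 104208047), was lower than DMSO at all 3 times of enzalutamide. It was 1 of 2 members, with CDC6, already lower at 8 h of enzalutamide, where 1.94% of all genes tested were lower, at 15.9, 16.7 and 18 CPM against 22, 24 and 23 CPM with DMSO. At 24 h ORC5 was at 14.4, 14.3 and 14.5 CPM with enzalutamide against 23.4, 21.5 and 25.2 CPM with DMSO, and at 72 h at 14.9, 14 and 14.3 CPM against 26.3, 23.2 and 21.2 CPM. The groups were apart at all 3 times. The log2 fold changes of ORC5 were -0.45 ± 0.09 (adjusted p = 0.0011) at 8 h, -0.69 ± 0.09 (adjusted p = 9.1e-08) at 24 h and -0.69 ± 0.09 (adjusted p = 2.3e-07) at 72 h. With olaparib alone at 72 h ORC5 stood at 29.8, 27.7 and 31.4 CPM, above every DMSO culture (log2 fold change 0.34 ± 0.08, adjusted p = 0.0042). With both drugs at 72 h it stood at 11.3, 12.9 and 14.9 CPM, below every DMSO culture.

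All 9 genes of helicase loading fell at 24 h of enzalutamide, with a median log2 fold change of -0.58. CDC6 (ENSG00000094804, chromosome 17, 40287879 to 40304657), the ATPase that recruits the helicase to ORC, went from 90.8, 95.1 and 91.6 CPM with DMSO to 56.6, 56.4 and 61.5 CPM. CDT1 (ENSG00000167513, chromosome 16, 88803789 to 88809258), which brings the MCM ring, went from 129, 110 and 117 CPM to 68, 72 and 68.1 CPM. MCM5 (ENSG00000100297, chromosome 22, 35400134 to 35425431), a subunit of the ring, went from 158, 144 and 141 CPM to 87.7, 88.4 and 93.3 CPM. None of these groups overlapped. The log2 fold changes were -0.67 ± 0.07 for CDC6 (adjusted p = 6.4e-09), -0.77 ± 0.07 for CDT1 (adjusted p = 4.3e-11) and -0.72 ± 0.05 for MCM5 (adjusted p = 6.4e-13). The other ring subunits ranged from -0.41 ± 0.06 (MCM6) to -0.70 ± 0.05 (MCM4). GMNN, which encodes the inhibitor of loading, fell from 27.9, 24.7 and 27.6 CPM to 20, 16.2 and 21.2 CPM, a log2 fold change of -0.48 ± 0.11 (adjusted p = 0.0014).

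All 12 genes of origin firing fell as well, with a median log2 fold change of -0.60. CDC45 (ENSG00000093009, chromosome 22, 19479457 to 19520612), a core part of the active helicase, was at 25.5, 23.7 and 28.2 CPM with DMSO and at 15.2, 15.8 and 15.2 CPM with enzalutamide at 24 h. GINS2 (ENSG00000131153, chromosome 16, 85676198 to 85690073), a subunit of the GINS complex, was at 37.9, 35.7 and 39.2 CPM with DMSO and at 23.6, 22 and 23.9 CPM with enzalutamide. The treated cultures of both genes were all below the controls, with log2 fold changes of -0.73 ± 0.11 (CDC45, adjusted p = 5.1e-06) and -0.70 ± 0.08 (GINS2, adjusted p = 7.7e-09). The firing kinase had smaller fold changes. DBF4 (ENSG00000006634, chromosome 7, 87876216 to 87909553) was at 28.4, 29.8 and 27 CPM with DMSO and at 26.7, 19.6 and 23.1 CPM with enzalutamide. Its 3 treated cultures spread widely but stayed below the controls, and the log2 fold change of DBF4 was -0.32 ± 0.09 (adjusted p = 0.013), a call that was lost when the second DMSO or the second enzalutamide culture was left out. The catalytic subunit CDC7 fell by 0.38 ± 0.10 on the log2 scale (adjusted p = 0.0045). Among the rest, MCM10, which helps to activate the helicase, fell by 0.75 ± 0.08, the GINS3 subunit by 0.73 ± 0.13 and TOPBP1, a scaffold of firing, by 0.34 ± 0.06.

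Of the 5 genes that guard or accompany the fork, 4 fell at 24 h of enzalutamide. CLSPN (ENSG00000092853, chromosome 1, 35720218 to 35769978) encodes claspin, the adaptor that carries the ATR signal to CHK1. It stood at 35.4, 38.1 and 34.7 CPM with DMSO and at 20.7, 20.8 and 20.8 CPM with enzalutamide, without overlap, a log2 fold change of -0.80 ± 0.10 (adjusted p = 1.1e-07). TIMELESS of the fork protection complex fell by 0.38 ± 0.07 on the log2 scale, WDHD1, which ties the helicase to polymerase alpha, by 0.52 ± 0.10, and MCM8, a helicase of homologous recombination, by 0.69 ± 0.12. TIPIN, the partner of TIMELESS, differed by -0.18 ± 0.08 and did not pass (adjusted p = 0.15).

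**Figure D2:**
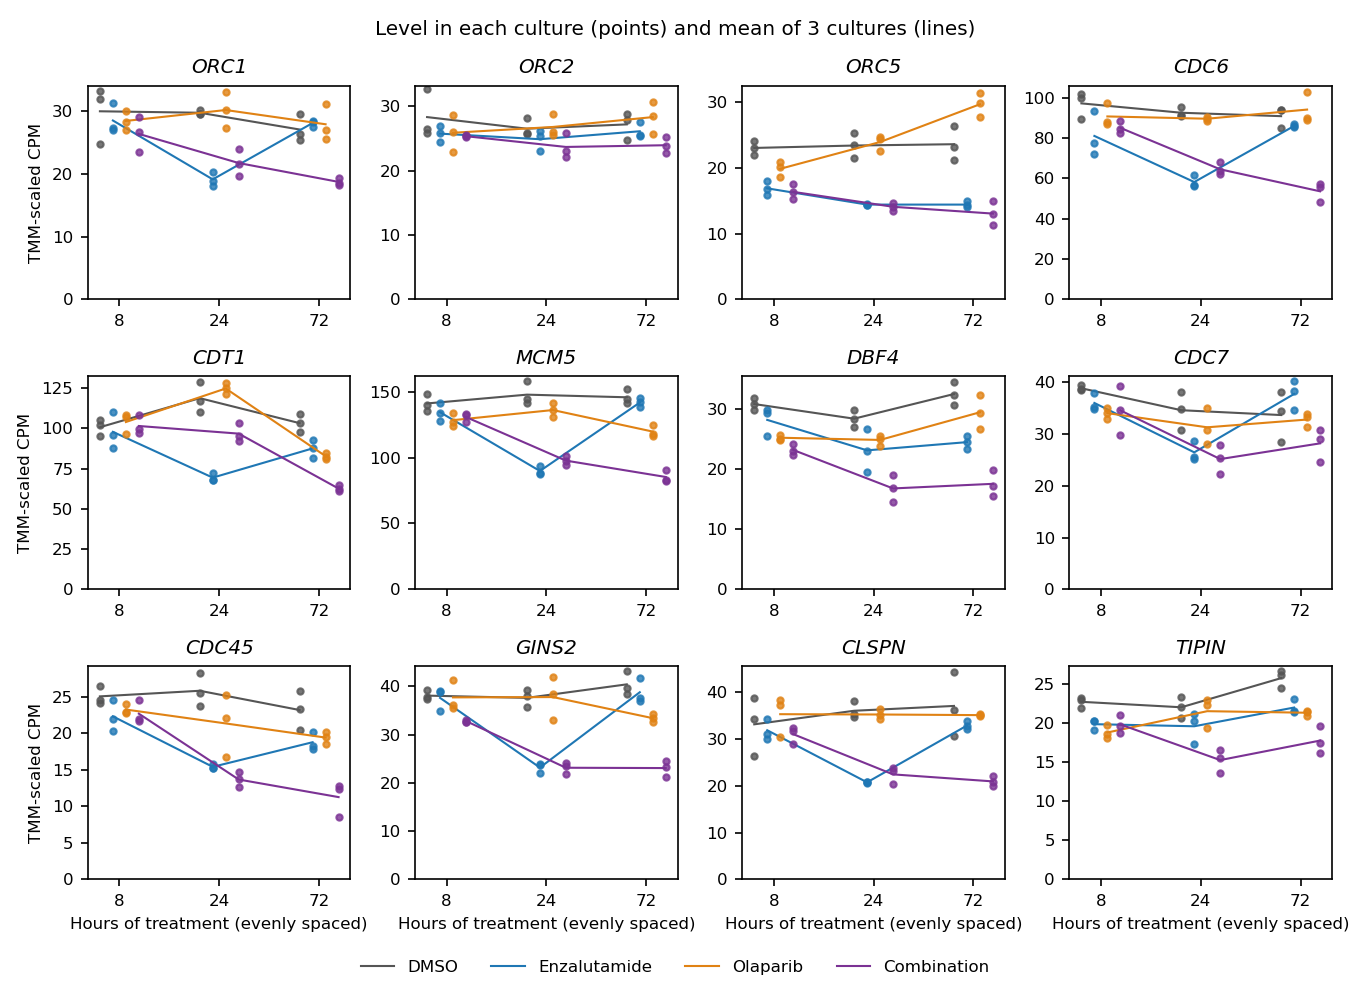
TMM-scaled CPM (vertical axes, from 0) of 12 genes in each culture (points) and the mean of 3 cultures (lines) at 8, 24 and 72 h, coloured by treatment. CDC6, CDT1, MCM5, GINS2 and CLSPN dip at 24 h with enzalutamide and climb by 72 h, while with both drugs CDC6, for instance, stays at 48.1 to 57.1 CPM at 72 h.

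By 72 h of enzalutamide alone most members were back near the vehicle. Against DMSO, 7 were lower and 0 higher, where 14.6% of all genes tested were lower, so that the members' share was not far above the background. The median log2 fold change of the members was -0.12, against -0.01 over all genes tested. They stood at 61.1% (ORC5) to 131% (ORC3) of DMSO, with a median of 92.3%. The 7 were ORC5, ORC6, CDT1, GMNN, MCM2, MCM3 and DBF4. Without the first DMSO culture at 72 h, 4 members were lower, and of the 7 only ORC5, ORC6 and DBF4 were still called. Leaving out the third enzalutamide culture at 72 h also gave 4. Without the second DMSO culture 10 were lower and 2 higher, and without the third 8 were lower and 1 higher. A fit on the 6 compared libraries alone kept ORC5 and DBF4.

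CDC6 at 72 h was at 84.8, 93.8 and 93.8 CPM with DMSO and at 85.7, 86.8 and 85.3 CPM with enzalutamide, and the groups overlapped. MCM5 was at 152, 144 and 141 CPM with DMSO and at 142, 138 and 145 CPM with enzalutamide. ORC1 was at 26.3, 29.5 and 25.3 CPM with DMSO and at 28.3, 28.4 and 27.5 CPM with enzalutamide. The log2 fold changes were -0.09 ± 0.07 (CDC6), -0.03 ± 0.06 (MCM5) and 0.04 ± 0.10 (ORC1), the groups overlapped for all 3 genes, and none passed. DBF4 stayed lower. It was at 30.7, 34.5 and 32.3 CPM with DMSO and at 25.6, 24.6 and 23.3 CPM with enzalutamide at 72 h, without overlap, a log2 fold change of -0.42 ± 0.10 (adjusted p = 0.00083). GMNN was at 39.4, 28.2 and 30 CPM with DMSO, the first culture being the one that stood apart, and at 25.1, 27.4 and 25 CPM with enzalutamide, all below DMSO, a log2 fold change of -0.30 ± 0.11 (adjusted p = 0.044). CDT1 stood at 109, 97.5 and 103 CPM with DMSO and at 88, 81.5 and 93 CPM with enzalutamide, again without overlap, a log2 fold change of -0.22 ± 0.07 (adjusted p = 0.017).

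The return was tested directly. The effect of enzalutamide against DMSO was higher (less negative or more positive) at 72 h than at 24 h for 20 of 32 members and lower for 0, where 4.84% of all genes tested were higher, and the median change was 0.45 on the log2 scale. By role these were 2 of 6 ORC subunits, 8 of 9 loading genes, 7 of 12 firing genes and 3 of 5 fork genes. Without the first DMSO culture at 72 h, 18 of the 20 were still called, all but MCM8 and WDHD1, and 20 members were called in all. A fit on only the libraries compared called 14, and leaving out 1 library gave 17 to 20. The calls of MCM2, MCM8 and WDHD1 were lost in 9, 9 and 10 of 18 alternatives. GINS4, the fourth GINS subunit, changed most, by 0.84 ± 0.14 (adjusted p = 4.2e-05), followed by DONSON, a factor of helicase assembly, by 0.73 ± 0.18 (adjusted p = 0.0066) and MCM5 by 0.68 ± 0.08 (adjusted p = 8.7e-08). In the enzalutamide cultures themselves, 25 members were higher at 72 h than at 24 h, where 7.21% of all genes tested were higher, and the cultures of 28 members did not overlap, against 16.4% of genes. GINS2 rose by 0.74 ± 0.08 on the log2 scale, from 23.6, 22 and 23.9 CPM to 41.8, 37.6 and 36.9 CPM, where its cultures overlapped those of DMSO (43.1, 39.6 and 38.5 CPM). ORC5 (0.00 ± 0.09), ORC2 (0.06 ± 0.09) and DBF4 (0.09 ± 0.09) showed no detectable move in these cultures.

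Few genes were called between hours in the vehicle cultures, though for 24 to 72 h this depended on single libraries. Between 24 and 72 h of DMSO edgeR called 0 members, against 0.146% of all genes tested; 6 had an unadjusted p below 0.05 and DESeq2 called 1. Over all genes these were 23 calls, which became 0 without the first DMSO culture at 72 h, 1325 (with 1 member, lower) without the second and 143 without the third. They became 0 without the first DMSO culture at 24 h and 1 without the third. The count was 463 without the filter and 338 with DESeq2. Between 8 and 24 h edgeR called 0, against 0.648% of genes, with 2 at an unadjusted p below 0.05 and 0 called by DESeq2.

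With both drugs the module was low at 24 h and at 72 h. At 24 h, 29 of 32 members were lower than with DMSO and 0 higher, where 12% of all genes tested were lower, with a median log2 fold change of -0.55. At 72 h, 28 were lower, where 22.6% of genes were lower, and 1, ORC4, was higher, where 20% of genes were higher, with a median of -0.63. The members stood at 48.7% (CDC45) to 128% (ORC4) of DMSO at 72 h, with a median of 64.1%. The cultures of 28 members lay wholly below DMSO, against 23.1% of all genes tested. All 28 lower calls held without the first DMSO culture at 72 h. The call of ORC4 (0.33 ± 0.12, adjusted p = 0.023) did not: its DMSO cultures were at 11.5, 16.2 and 20 CPM and those with both drugs at 19.1, 21.3 and 20.9 CPM, which overlap. ORC2, ORC3 and DONSON were not called.

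The largest falls of single members at 72 h of both drugs were those of CDC45, DBF4 and ORC5. By role, the median log2 fold change was -0.71 for the loading genes, -0.56 for the firing genes, -0.57 for the fork genes and -0.35 for ORC. CDC45 was at 23.3, 20.4 and 25.8 CPM with DMSO and at 12.4, 8.59 and 12.8 CPM with both drugs, a log2 fold change of -1.07 ± 0.13 (adjusted p = 3.2e-08). DBF4 went from 30.7, 34.5 and 32.3 CPM to 19.9, 15.6 and 17.2 CPM, a log2 fold change of -0.93 ± 0.10 (adjusted p = 2.7e-09). Neither gene's groups overlapped. ORC5 fell by 0.82 ± 0.10 on the log2 scale (adjusted p = 7.3e-09). MCM2 of the helicase ring was at 206, 141 and 149 CPM with DMSO and at 87.6, 95.5 and 94.6 CPM with both drugs, a log2 fold change of -0.81 ± 0.08 (adjusted p = 1.3e-10). The remaining ring subunits fell by 0.63 ± 0.06 (MCM7) to 0.76 ± 0.06 (MCM5), GMNN, at 18.2, 20.5 and 20.6 CPM with both drugs, by 0.66 ± 0.12 and CLSPN, at 22.2, 20.8 and 19.9 CPM, by 0.80 ± 0.11.

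Set directly against enzalutamide alone at 72 h, both drugs gave 27 lower members and 0 higher, where 8.04% of all genes tested were lower. The median log2 difference of the members was -0.47, against 0.00 over all genes tested, and the cultures of 28 members did not overlap, against 17.6% of genes. All 9 loading genes, all 12 firing genes and all 5 fork genes were lower, and of ORC only ORC1 was. CDC45 with both drugs (12.4, 8.59 and 12.8 CPM) lay below enzalutamide alone (20.2, 17.8 and 18.3 CPM), a log2 difference of -0.79 ± 0.13 (adjusted p = 4.7e-05). GINS2 with both drugs was at 23.3, 24.6 and 21.3 CPM, below every culture of enzalutamide alone, a difference of -0.74 ± 0.08 (adjusted p = 1.8e-08). MCM5 was at 82.3, 90.6 and 82.9 CPM with both drugs against 142, 138 and 145 CPM, a difference of -0.73 ± 0.06 (adjusted p = 3.9e-12). In these 3 genes no culture of one group reached the other. CDC6 was at 55.5, 57.1 and 48.1 CPM against 85.7, 86.8 and 85.3 CPM, a difference of -0.68 ± 0.08 (adjusted p = 3.5e-08). ORC1 was at 18.2, 19.3 and 18.6 CPM against 28.3, 28.4 and 27.5 CPM, a difference of -0.58 ± 0.10 (adjusted p = 0.0001). ORC2 was at 22.8, 25.2 and 23.8 CPM with both drugs against 25.3, 27.5 and 25.5 CPM, which lay only just apart, and its difference of -0.11 ± 0.09 did not pass (adjusted p = 0.49). These 27 calls compare no DMSO culture. Within the 3 sets of libraries 31, 32 and 30 members were lower with both drugs, with medians of -0.53, -0.5 and -0.48. Mitochondrial genes held 6.73% to 7.05% of counts with both drugs against 5.06% to 5.39% with enzalutamide alone, whose part was not tested.

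The difference between the 2 courses, that is the log2 change from 24 to 72 h with both drugs minus that with enzalutamide alone, compares the 12 libraries of those 4 groups and no DMSO culture. It was lower for 18 members and higher for 0, where 2.65% of all genes tested were lower, with a median of -0.48 against 0.00 over all genes. The 18 were 2 ORC subunits (ORC1 and ORC6), 8 loading genes, 6 firing genes and 2 fork genes, with GMNN the loading gene that was not called (-0.48 ± 0.17, adjusted p = 0.1). Among the firing genes, the calls of CDC45, GINS4 and GINS1 were lost in 13, 9 and 7 of 18 alternatives. CDT1 differed most. With enzalutamide alone it rose from 68, 72 and 68.1 CPM at 24 h to 88, 81.5 and 93 CPM at 72 h, and with both drugs it fell from 103, 91.9 and 95.1 CPM to 64.7, 62.1 and 61 CPM. The difference of the 2 courses of CDT1 was -0.97 ± 0.10 (adjusted p = 7.5e-08). MCM5 differed by -0.85 ± 0.08 (adjusted p = 5.9e-09) and CDC6 by -0.83 ± 0.11 (adjusted p = 5.9e-06).

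In the cultures with both drugs, 3 members were lower at 72 h than at 24 h, CDC6 (-0.27 ± 0.08), CDT1 (-0.63 ± 0.07) and MCM5 (-0.19 ± 0.06), and 0 were higher, where 8.9% of all genes tested were lower, a share like that of the members. Without the third culture with both drugs at 72 h, 1 was lower. The effect of both drugs against DMSO changed between those times for 1 member, CDT1 (-0.42), which was lower, where 5.41% of genes were lower. It was called without the first DMSO culture at 72 h as well. The count was 2 without the second or the third DMSO culture at 72 h. CDC45, GINS2 and CLSPN with both drugs moved from 12.6, 13.7 and 14.7 CPM, 23.5, 24.1 and 21.8 CPM and 20.5, 23.1 and 23.8 CPM at 24 h to the values at 72 h given above, without a call. Over the same hours 25 members rose in the enzalutamide cultures.

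**Figure D3:**
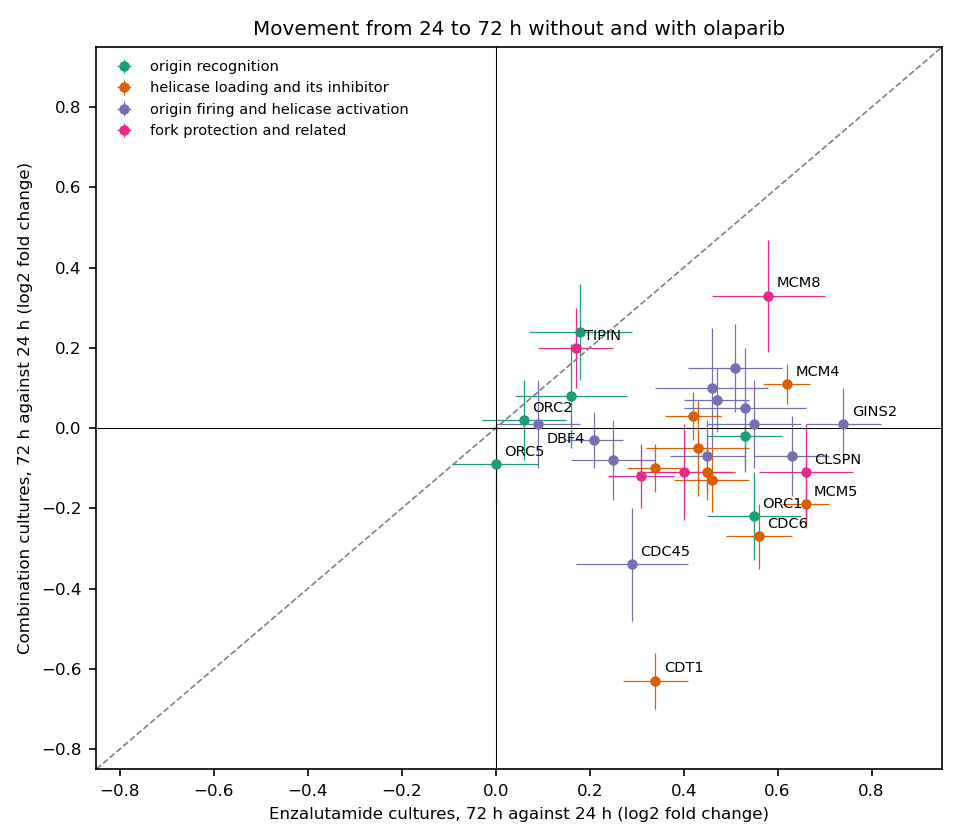
Log2 fold change of each gene from 24 to 72 h in the enzalutamide cultures (horizontal) and in the cultures with both drugs (vertical), with bars of 1 SE; the dashed line marks equal movement. Most genes lie right of 0 and near 0 on the vertical axis, and CDT1 lies lowest, at 0.34 and -0.63.

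CDT1 already differed between the 2 treatments at 24 h. It was at 103, 91.9 and 95.1 CPM with both drugs and at 68, 72 and 68.1 CPM with enzalutamide alone, a log2 difference of 0.48 ± 0.07 (adjusted p = 3.3e-05). ORC6 was higher too (0.32 ± 0.09, adjusted p = 0.043), at 22.3, 21.3 and 22.5 CPM against 17.9, 18.4 and 17 CPM. These 2 were the higher members, where 1.08% of all genes tested were higher, and DBF4 (-0.42 ± 0.10, adjusted p = 0.017) and TIPIN (-0.36 ± 0.09, adjusted p = 0.026) the 2 lower ones, where 0.845% of genes were lower. DBF4 stood at 16.8, 14.6 and 19 CPM with both drugs, below each of the enzalutamide cultures. The call of CDT1 held in all 12 alternatives run, whereas those of ORC6, DBF4 and TIPIN were each lost in 4 or more of 12. Without the first or the third enzalutamide culture at 24 h, or the first culture with both drugs, 0 members were lower, and without the second or the third culture with both drugs 1 was. At 8 h both drugs and enzalutamide alone did not differ in a called member (0 by edgeR, against 0.654% of genes, with 4 at an unadjusted p below 0.05 and 0 by DESeq2).

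Olaparib alone moved the module little, with median log2 fold changes of the members of -0.1, -0.05 and -0.06 at 8, 24 and 72 h. Members were called only at 72 h. At 8 h edgeR called 0 members against DMSO, where 1.32% of all genes tested were called, with 7 at an unadjusted p below 0.05 and 0 by DESeq2. At 24 h it called 0, where 1.12% of genes were called, with 8 at an unadjusted p below 0.05 and 0 by DESeq2. At 72 h, 10 members were lower, where 9.69% of genes were lower, with a median log2 fold change of -0.06. The 2 higher members, ORC3 and ORC5, were a smaller share than the 8.22% of genes that were higher. Of the 10, 6 were loading genes (CDT1, MCM2, MCM3, MCM5, MCM6 and MCM7). The others were GINS2, RECQL4, TIMELESS and TIPIN. MCM2 was at 129, 133 and 120 CPM with olaparib against 206, 141 and 149 CPM with DMSO, a log2 fold change of -0.35 ± 0.08 (adjusted p = 0.0013). CDT1 was at 81.1, 84.9 and 82.1 CPM, below every DMSO culture, with -0.31 ± 0.07 as the log2 fold change (adjusted p = 0.0022). MCM5 was at 118, 125 and 116 CPM, also below every DMSO culture, a log2 fold change of -0.28 ± 0.06 (adjusted p = 0.00037). None of these groups overlapped. RECQL4, a helicase needed for initiation, was at 44.3, 47.5 and 41.5 CPM against 66.3, 51 and 52.3 CPM, a log2 fold change of -0.31 ± 0.09 (adjusted p = 0.014). ORC3 was at 15.5, 14.8 and 16 CPM with olaparib and at 8.48, 13.6 and 11.6 CPM with DMSO, all above DMSO, a log2 fold change of 0.38 ± 0.12 (adjusted p = 0.028).

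Part of this rests on the library that stood apart. Without the first DMSO culture at 72 h, 5 of the 10, CDT1, MCM2, MCM5, MCM6 and MCM7, stayed lower with olaparib and ORC5 stayed higher. Without the first olaparib culture at 72 h, 6 members were lower. The 2 higher members became 1 without the first or the third culture of either group. In a fit on the 6 compared libraries alone, 0 of the 12 were called. CDC6 was not lowered by olaparib at 72 h, at 89.1, 90.1 and 103 CPM, nor was ORC1, at 31.1, 27 and 25.5 CPM. The effect of olaparib differed between 24 and 72 h for 1 member, CDT1 (-0.38), which was lower, where 2.76% of genes were lower. CDT1 was called without the first DMSO culture at 72 h as well. This count was 0 in a fit on the 12 compared libraries alone, without the first olaparib culture at either time or the second DMSO culture at 24 h, and 2 without the second DMSO culture at 72 h. In the olaparib cultures 3 members, CDT1, MCM5 and MCM7, were lower at 72 h than at 24 h, where 6.54% of genes were lower, and 2, ORC5 and MCM8, were higher, where 4.5% of genes were higher, both shares being near the background. The 3 lower ones became 1 without the first olaparib culture at 24 h or the first or the third at 72 h. The 2 higher ones became 1 without the first or the second culture at either time, and 0 without the third at either time.

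For 13 members the fall with both drugs at 72 h was larger than the sum of the single effects. The departure from additivity, the log2 effect of both drugs minus the sum of the 2 single effects, was called lower for these, where 1.3% of all genes tested were lower, and was negative for all 32, with a median of -0.36. It was largest for CDC6 (-0.71 ± 0.11, adjusted p = 9e-05), whose single effects at 72 h were -0.09 ± 0.07 with enzalutamide and 0.03 ± 0.07 with olaparib, against -0.77 ± 0.08 with both. MCM8 (-0.64 ± 0.18, adjusted p = 0.042) and GINS4 (-0.64 ± 0.14, adjusted p = 0.0085) followed. For CDT1, which olaparib alone also lowered, the departure was -0.18 ± 0.10 and did not pass (adjusted p = 0.43). Without the first DMSO culture at 72 h, 12 of the 13, all but MCM8, were still called and 15 members were called in all. The call of MCM8 was lost in 9 of 18 alternatives. In a fit on the 12 libraries of that hour alone 3 members were called. Without the third DMSO culture 8 were called. The count was 7 without any 1 of the first or second olaparib culture, the first or second enzalutamide culture, or the second or the third culture with both drugs, all at 72 h. At 8 h edgeR called a departure for 0 members and 0% of genes, with 1 member at an unadjusted p below 0.05, and at 24 h for 0 members and 0% of genes, with 4, and DESeq2 called 0 at both times.

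The early hours held few calls. At 8 h of enzalutamide 2 members were lower, ORC5 and CDC6 (-0.27 ± 0.07, adjusted p = 0.032). The call of CDC6 was lost when the first or the second culture of either group was left out. With both drugs at 8 h 6 members were lower, ORC5, MCM3, MCM4, MCM7, DBF4 and GINS1, where 3.86% of genes were lower. Leaving out any 1 library gave 4 or 5, and the call of MCM7 was lost in 7 of 12 alternatives and that of MCM3 in 4. Against olaparib alone, both drugs gave 0 called members at 8 h, where 2.19% of genes were called, with 5 at an unadjusted p below 0.05 and 0 by DESeq2. They gave 27 lower members at 24 h, where 7.7% of genes were lower, and 27 at 72 h, where 18% of genes were lower.

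Other genes of the pathway were lower at 24 h of enzalutamide as well, where 10.6% of all genes tested were lower and 8.21% higher. Of 24 genes of fork synthesis, 19 were lower and 0 higher, with a median log2 fold change of -0.44, among them RFC3 of the clamp loader (-0.91) and the flap nuclease FEN1 (-0.81). Of 16 other genes of licensing control, 6 were lower and 0 higher (median -0.21), led by CDC25A, a phosphatase that activates the S-phase kinases (-0.73), and DTL, which targets CDT1 for destruction (-0.69). Of 19 E2F, RB and MuvB genes, 10 were lower and 1 higher (median -0.25), with E2F2 at -0.95, E2F8 at -0.79 and E2F1 at -0.77, and RBL2, a pocket protein of resting cells, at 0.27. The list of 13 G1 and S phase genes held cyclins and their kinases, but also the kinase inhibitors CDKN1A, CDKN1B, CDKN1C, CDKN2C and CDKN2D. Its counts pool both kinds. Of these 13, 5 were lower (median -0.23), such as CDK2 (-0.62) and CCNA2 (-0.55), and 1, the inhibitor gene CDKN1B, was higher (0.28). Of 23 mitotic genes, 20 were lower and 0 higher (median -0.45), with AURKB at -0.79.

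At 72 h the counts in these lists also differed by treatment. With enzalutamide alone, 6 of 24 fork synthesis genes, 3 of 19 E2F, RB and MuvB genes and 0 of 23 mitotic genes were lower than DMSO, where 14.6% of all genes tested were lower, so that the share of the E2F, RB and MuvB genes lay near the background. In the same order 0, 3 and 4 were higher, where 12.7% of genes were higher. With both drugs 21, 10 and 21 were lower, where 22.6% of genes were lower, and 0, 3 and 0 higher, where 20% were. Without the first DMSO culture at 72 h the lower ones were 7, 3 and 0 with enzalutamide and 20, 9 and 22 with both drugs, and the higher ones 0, 1 and 3 and 0, 2 and 0. Both drugs against enzalutamide alone gave 19, 7 and 22 lower, where 8.04% of genes were lower, and 0, 2 (RBL2 and TFDP2, both 0.27) and 0 higher, where 6.46% were. The lists had medians of -0.37, -0.25 and -0.68, with POLE2 of polymerase epsilon at -0.99, MYBL2 at -1.01 and E2F1 at -0.78. Of the 13 genes of the G1 and S phase list, which includes kinase inhibitors, 5 were lower than DMSO at 72 h of enzalutamide alone. In the same comparison 1 was higher, and both counts were the same as at 24 h. Their median was -0.02. With both drugs 10 were lower and 1 higher, and both drugs against enzalutamide alone gave 6 lower and 1 higher. For the 16 other licensing control genes these counts were 2 and 1, 8 and 2, and 5 and 0. The shares of all genes are those given above for each comparison. CDKN1A, the p21 inhibitor of the cyclin-dependent kinases, was the 1 higher gene of the G1 and S phase list for both drugs against enzalutamide alone. It was at 299 ± 7.84 CPM with enzalutamide and 1300 ± 30.9 CPM with both drugs (SD, n = 3), a log2 difference of 2.12 ± 0.06 (adjusted p = 8.6e-25). With olaparib alone CDKN1A was already at 967 ± 23.6 CPM at 8 h and 1440 ± 33.8 CPM at 24 h, against 421 ± 10 and 404 ± 3.61 CPM with DMSO. The part of CDKN1A in the levels of the members was not tested. At 8 h of olaparib 15 of 23 mitotic genes were lower, where 0.769% of all genes tested were, such as CDC20 (-0.98) and PLK1 (-0.94).

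**Figure D4:**
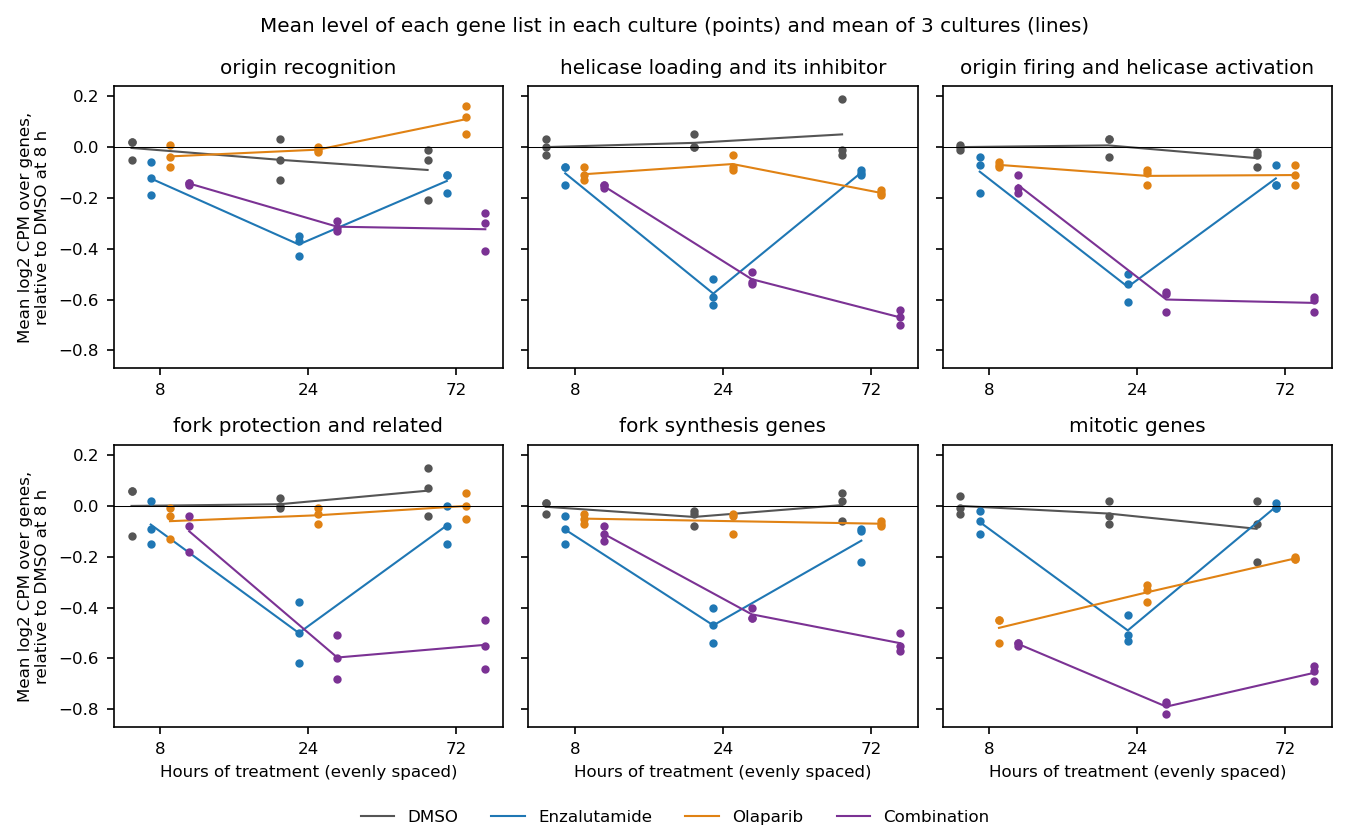
Mean log2 CPM over the genes of 6 lists relative to the DMSO cultures at 8 h (vertical axis), in each culture (points) with the mean of 3 (lines) at 8, 24 and 72 h. With olaparib at 8 h the mitotic genes are at -0.48 and the 4 lists of the module at -0.11 to -0.04. At 72 h of olaparib the mitotic genes are at -0.21 and helicase loading is at -0.18. With both drugs at 72 h all 6 lists drawn lie below the enzalutamide line, origin recognition by the smallest distance.

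The mean log2 level over all 32 members, relative to DMSO at 8 h, gives the courses in a few numbers. It was -0.1 ± 0.07, -0.52 ± 0.06 and -0.11 ± 0.03 (SD, n = 3) at 8, 24 and 72 h of enzalutamide, -0.07 ± 0.02, -0.07 ± 0.01 and -0.07 ± 0.03 with olaparib, and -0.14 ± 0, -0.52 ± 0.03 and -0.57 ± 0.01 with both drugs. Mitotic genes with olaparib alone ran at -0.48 ± 0.05, -0.34 ± 0.04 and -0.21 ± 0.01 over the same hours. The highest culture of both drugs at 72 h was at -0.56, below the lowest enzalutamide culture at 72 h at -0.14.

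Where a gene's exons overlap those of a partner, a count without strand cannot tell whose fragment lies in the shared stretch. MCM7 shares 392 bases (8.94% of its exon length) with AP4M1, at a mean of 16.6 CPM, DONSON shares 307 bases (8.74%) with SON, at 339 CPM, and DBF4 shares 145 bases (3.16%) with SLC25A40, at 19.6 CPM, all on the opposite strand. GINS2 shares 7 bases with GSE1, at 383 CPM. The largest overlaps were 2564 bases (33.3%) of MCM8, 1113 (23.6%) of MCM2, 579 (21.1%) of TIPIN and 1145 (21%) of GINS4. The partners of MCM8 and TIPIN lie on the same strand and had a mean of 0 CPM, so no fragments there were counted for the partners. Whether fragments of shared stretches were left out for the members too was not tested. Their part in the changes of DONSON, DBF4, GINS2 and the members with the largest overlaps was not tested either.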

How the data were processed

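RNA of 36 LNCaP cultures was sequenced in pairs on an Illumina HiSeq from TruSeq libraries, per the labels' protocols. The authors deposited 1 table of raw counts per gene. Per the file headers, featureCounts 2.0.0 counted without strand, over Ensembl 99 genes on GRCh38, fragments of 20 to 5000 bases with both mates mapped and primary alignments only; STAR, DESeq2 and hg38 are named in the submitters' processing notes. Counts were analysed with edgeR 4.0.16 in R 4.3.3: filterByExpr by group, TMM scaling, glmQLFit over the 12 group means (24 residual degrees of freedom) and glmQLFTest, with Benjamini-Hochberg adjustment over all 15744 genes tested and a call at an adjusted p below 0.05. The tested genes held 99.8% of counts. CPM are TMM-scaled. SE is the absolute log2 fold change divided by the square root of F. The scripts were tested on simulated data. Alternatives were DESeq2 1.42.0, other size factors, no filter, blocks for replicate number and for the 3 sets marked in the library names, only the libraries compared, and leaving out each library.

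The labels give triplicate cultures, so p-values measure the spread between cultures of 1 line. That spread was estimated per gene over all 12 groups, not from the compared cultures alone. The members and the other gene lists were chosen with earlier results of these data known. Values of every culture are given for CDC6, CDT1, GMNN, MCM5, ORC1, ORC2, CDC45, GINS2, DBF4 and CLSPN and for the 3 called members with the largest change per direction in the main comparisons. Of each other list up to 4 called genes per direction are named by size, and KLK3 and CDKN1A check the drugs. No library repeated the counts of another in every gene, and a weaker likeness was not tested. Promoter sequences are RefSeq's (GRCh38.p14).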

Additional observations from a re-analysis of the deposited data

Results flagged for a closer look

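The effect of enzalutamide differed between 24 and 72 h, by a test of the difference itself, for 20 members, with GINS4 at 0.84, DONSON at 0.73 and MCM5 at 0.68 on the log2 scale. The number was 14 in a fit on only the libraries compared and 17 to 20 with 1 library left out. The effect of olaparib differed between those times for 1 member, CDT1 (-0.38), and so did that of both drugs, again CDT1 (-0.42). The course from 24 to 72 h differed between both drugs and enzalutamide alone for 18 members, with CDT1 at -0.97, MCM5 at -0.85 and CDC6 at -0.83. At 72 h the effect of enzalutamide differed with and without olaparib for 13 members, with CDC6 at -0.71, MCM8 at -0.64 and GINS4 at -0.64. This count was 3 in a fit on that hour's libraries alone and 7 to 15 with 1 library left out, and the call of MCM8 was lost in 9 of 18 alternatives, among them without the first DMSO culture, the library that stood apart.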

How the results depend on the processing

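In single genes, 284 called differences of members were recomputed in 3726 alternatives: 3390 kept their direction and call, 336 kept the direction without the call, and 0 reversed. Fits on only the libraries compared gave fewer lower members in some comparisons: 1 at 8 h of enzalutamide (2 in the report), 2 at 72 h of enzalutamide (7), 0 at 72 h of olaparib (10), 1 for both drugs against enzalutamide at 24 h (2) and 3 for the departure from additivity at 72 h (13). They gave as many at 24 h of enzalutamide (28) and for both drugs against enzalutamide at 72 h (27), and more for both drugs against olaparib at 24 h (28, against 27) and for the difference of the courses (20, against 18); the cause was not tested. Without the filter, and with DESeq2, both drugs against enzalutamide at 24 h gave 1 lower member, and the olaparib cultures 1 higher member at 72 than at 24 h (2). The departure at 72 h was called for 9 members without the filter and 11 with DESeq2, and the difference of the courses for 14 and 16. The cause was not tested. Leaving out each library gave 1 to 2 lower members at 8 h of enzalutamide, 4 to 10 at 72 h of enzalutamide, 5 to 10 at 72 h of olaparib, 0 to 2 for both drugs against enzalutamide at 24 h, 0 to 1 for both drugs against olaparib at 8 h (1 without the third olaparib culture), 7 to 15 for the departure at 72 h, 0 to 1 higher in the olaparib cultures and 0 to 1 higher for the changed effect of both drugs (1 without the second DMSO culture at 72 h). It gave 27 to 28 at 24 h of enzalutamide, 26 to 28 for both drugs at 72 h, 22 to 24 for both drugs against enzalutamide at 72 h and 15 to 17 for the difference of the courses. Over all genes, olaparib against DMSO at 72 h had 2819 calls and 639 with only the libraries compared, enzalutamide at 72 h 4287 and 1956, and DMSO at 72 against 24 h 23, 463 without the filter, 338 with DESeq2 and 1325 without the second DMSO culture at 72 h. With the replicate block, 28, 9 and 27 members were lower at 24 h of enzalutamide, at 72 h of enzalutamide and for both drugs against enzalutamide at 72 h, and 19 for the difference of the courses. Cultures sharing a replicate number did not deviate together on average (mean correlation 0.009, 15 of 36 closest to their own number). This cannot show whether the cultures were set up as pairs. By the sets marked in the library names the mean correlation was 0.034, against -0.017 between sets, with 23 of 36 closest to their own set. With the set as a block the same 4 counts were 28, 9, 27 and 19. At 39 counts, the lowest of a member, counting error limits the precision of ORC3.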
